A study of Mus musculus with 9 samples.

Results

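Mecom, Sall2, Gata2, Erg, Tal1, Lmo2, Myb and Mycn encode transcription factors, or in the case of Lmo2 a bridging cofactor, of blood stem and progenitor cells or of leukemia. These 8 genes were taken by name, and each had exactly 1 probe set with a single gene symbol, so all 8 of 17731 measured genes entered without a choice between probe sets. They were listed with earlier results of these arrays known. Mecom and Sall2 were chosen by these same log2 values, being already known as higher in IDH1mut than in CTL cells, so their values in that group are given as a description, with no test. Cells were sorted from mouse bone marrow as positive for green fluorescent protein, and 9 arrays were measured in 3 groups of 3. IDH1mut cells carried the retroviral vector pSF91 with mutant IDH1, IDH1wt cells the same backbone with wild-type IDH1, and CTL cells the empty EGFP vector. All groups shared the C57BL6 strain background, prior immortalisation of the marrow cells with HoxA9, transplantation into irradiated mice and a sort 4 weeks later. The labels name neither the IDH1 substitution nor the age of the mice, and do not say whether replicates came from separate mice or transductions, so the p-values measure the spread between these samples only. Integration sites and the clonal makeup of the sorted cells were not analysed here.

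Blood stem cell identity is held by transcription factors that bind many of the same regulatory regions. TAL1, a basic helix-loop-helix factor, dimerises with E proteins at E-boxes, LMO2 bridges it to GATA factors through LDB1, and the ETS factors ERG and FLI1 bind beside this complex. Mecom encodes EVI1 and the longer MDS1-EVI1 protein, zinc finger factors needed by stem cells, and its locus is a common site of retroviral integration in mouse and human cells. MYB and the MYC family factor MYCN drive proliferation of progenitors, whereas SALL2 belongs to the spalt-like zinc finger family. HOXA9, the immortalising factor shared by all groups, also keeps myeloid progenitors from maturing.

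The windows around the annotated starts of Mecom, Sall2 and Tal1 are shown because these genes carry the clearest group differences below. They run from 250 bases before to 50 bases after a start and come from RefSeq on GRCm38.p6, in which 7 of the 8 genes had at least 1 window; Lmo2 had none. Each is written 5′ to 3′ on the gene's strand. Capitals mark every match, on either strand, to the GATA motif AGATAA, the E-box CANNTG, the ETS motif AGGAAG or the EVI1 motif GACAAGATA, of which the first and the last share letters and can overlap.
Mecom, chr3:30509710-30510009, minus strand: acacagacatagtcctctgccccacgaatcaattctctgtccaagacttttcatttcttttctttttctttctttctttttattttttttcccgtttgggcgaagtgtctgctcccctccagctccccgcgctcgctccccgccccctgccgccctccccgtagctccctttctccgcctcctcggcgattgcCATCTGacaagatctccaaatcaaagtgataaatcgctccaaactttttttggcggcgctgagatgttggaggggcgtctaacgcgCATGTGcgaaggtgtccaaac
Mecom, chr3:30013155-30013454, minus strand: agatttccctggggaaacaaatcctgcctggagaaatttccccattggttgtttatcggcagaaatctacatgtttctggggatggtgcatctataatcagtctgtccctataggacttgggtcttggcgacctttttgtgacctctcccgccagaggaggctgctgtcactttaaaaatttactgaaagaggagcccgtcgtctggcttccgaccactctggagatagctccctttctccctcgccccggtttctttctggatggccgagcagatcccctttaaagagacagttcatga
Sall2, chr14:52328621-52328920, minus strand: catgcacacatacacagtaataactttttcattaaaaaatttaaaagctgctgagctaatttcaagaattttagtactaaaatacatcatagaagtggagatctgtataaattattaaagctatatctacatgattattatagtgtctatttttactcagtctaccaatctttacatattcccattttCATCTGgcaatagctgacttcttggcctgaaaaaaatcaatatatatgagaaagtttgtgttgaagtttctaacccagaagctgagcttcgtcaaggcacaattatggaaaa
Sall2, chr14:52316274-52316573, minus strand: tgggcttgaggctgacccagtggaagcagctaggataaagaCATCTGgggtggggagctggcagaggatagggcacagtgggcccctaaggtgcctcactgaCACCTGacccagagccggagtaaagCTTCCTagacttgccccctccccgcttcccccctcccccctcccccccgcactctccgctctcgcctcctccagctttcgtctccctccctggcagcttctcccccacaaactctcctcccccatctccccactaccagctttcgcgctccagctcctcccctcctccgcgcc
Tal1, chr4:115056176-115056475, plus strand: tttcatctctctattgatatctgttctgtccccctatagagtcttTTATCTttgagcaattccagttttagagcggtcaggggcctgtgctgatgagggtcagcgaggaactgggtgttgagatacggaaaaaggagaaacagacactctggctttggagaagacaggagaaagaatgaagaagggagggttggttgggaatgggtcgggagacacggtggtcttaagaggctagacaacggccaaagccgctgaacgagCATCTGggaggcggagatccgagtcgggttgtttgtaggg
The upstream Mecom window held 2 E-boxes and the downstream one none of the 4 motifs. The Sall2 windows held 1 and 2 E-boxes, the second of them also 1 ETS motif. The Tal1 window held 1 GATA motif and 1 E-box, and a further Tal1 window, not printed, held none. Over all 32851 windows of this length, 72.3% held an E-box, 35.4% the ETS motif, 11.2% the GATA motif and 0.119% the EVI1 motif. These are matches of letters, and no binding was measured. The upstream Sall2 window was poor in CG dinucleotides, with 1 against a median of 7 over all windows, while the other held 10 and the Mecom windows 19 and 9.

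Values are deposited log2 expression values made with RMA, a method that corrects background, puts the arrays on a common distribution and summarises the probes of each probe set. The array medians lay between 4.65 and 4.72, and RMA gives no call of presence, so a low value is not proof of expression. A difference of 1 is a 2-fold change, compressed at the low end of the scale. Differences were tested with limma over all 17731 genes with Benjamini-Hochberg adjustment, and "rose" or "fell" mark an adjusted p under 0.05. All adjusted p-values below come from this fit, with 3 arrays in each group, and each difference is given ± its moderated standard error (SE). Correlations over genes were at least 0.992 between arrays of a group and at most 0.992 between arrays of different groups. The sorted cells carried the myeloid markers fixed for the label, 11 of 12 of which had a probe set: their mean log2 value lay between 11.1 and 11.2 on IDH1mut arrays, 11.3 and 11.4 on IDH1wt arrays and 11.3 and 11.4 on CTL arrays. The probe sets of the transduced genes check no label, since the labels do not give the species or the probed part of the inserts. Idh1 averaged 10.64 ± 0.17 (SD, n = 3) in IDH1mut, 10.58 ± 0.13 in IDH1wt and 10.67 ± 0.03 in CTL cells. Hoxa9 averaged 3.35 in IDH1mut, 3.89 in IDH1wt and 3.74 in CTL cells, and was lower in IDH1mut than in IDH1wt (-0.54 ± 0.14; adjusted p = 0.0311). All Hoxa9 values lay below the array medians.

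Mecom was high in IDH1mut cells alone. It read 7.70, 7.63 and 7.46 on the IDH1mut arrays, 4.51, 4.17 and 4.86 on the IDH1wt arrays, and 4.97, 4.66 and 4.38 on the CTL arrays. Every IDH1mut array lay more than 2 log2 units above every other array, and the IDH1wt and CTL arrays overlapped. The difference was 2.93 ± 0.18 (SE) between IDH1mut and CTL, a 7.60-fold higher level, and 3.08 ± 0.18 between IDH1mut and IDH1wt, an 8.47-fold higher level. These rank as the 4th and the 2nd largest of the 17731 genes, as a description of the values by which Mecom was chosen. Between IDH1wt and CTL the difference was -0.16 ± 0.18 (adjusted p = 0.715; 95% interval -0.55 to 0.24). These cells are bulk samples, so more cells with Mecom RNA and more Mecom RNA per cell cannot be told apart, here and for every gene below. The deposited probe set names the gene only, so EVI1 and MDS1-EVI1 transcripts were not told apart.

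Sall2 had the largest positive difference of the 17731 genes in both comparisons of IDH1mut. Its values were 7.76, 7.48 and 6.81 on the IDH1mut arrays, 2.76, 2.58 and 2.94 on the IDH1wt arrays, and 2.75, 2.63 and 2.49 on the CTL arrays. The IDH1wt and CTL values lay far below the array medians, whereas all IDH1mut values lay above them. IDH1mut minus CTL was 4.73 ± 0.20, or 26.5-fold, and IDH1mut minus IDH1wt was 4.59 ± 0.20, or 24.1-fold, on a scale where the low values of the other groups compress the fold. Between IDH1wt and CTL the difference was 0.14 ± 0.20 (adjusted p = 0.781; 95% interval -0.30 to 0.58). Leaving out any 1 array moved the IDH1mut minus CTL difference of Sall2 between 4.52 and 5.0 and that of Mecom between 2.78 and 3.08. The order of the IDH1mut arrays was the same for both genes, with replicate 1 highest and replicate 3 lowest.

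**Figure D1:**
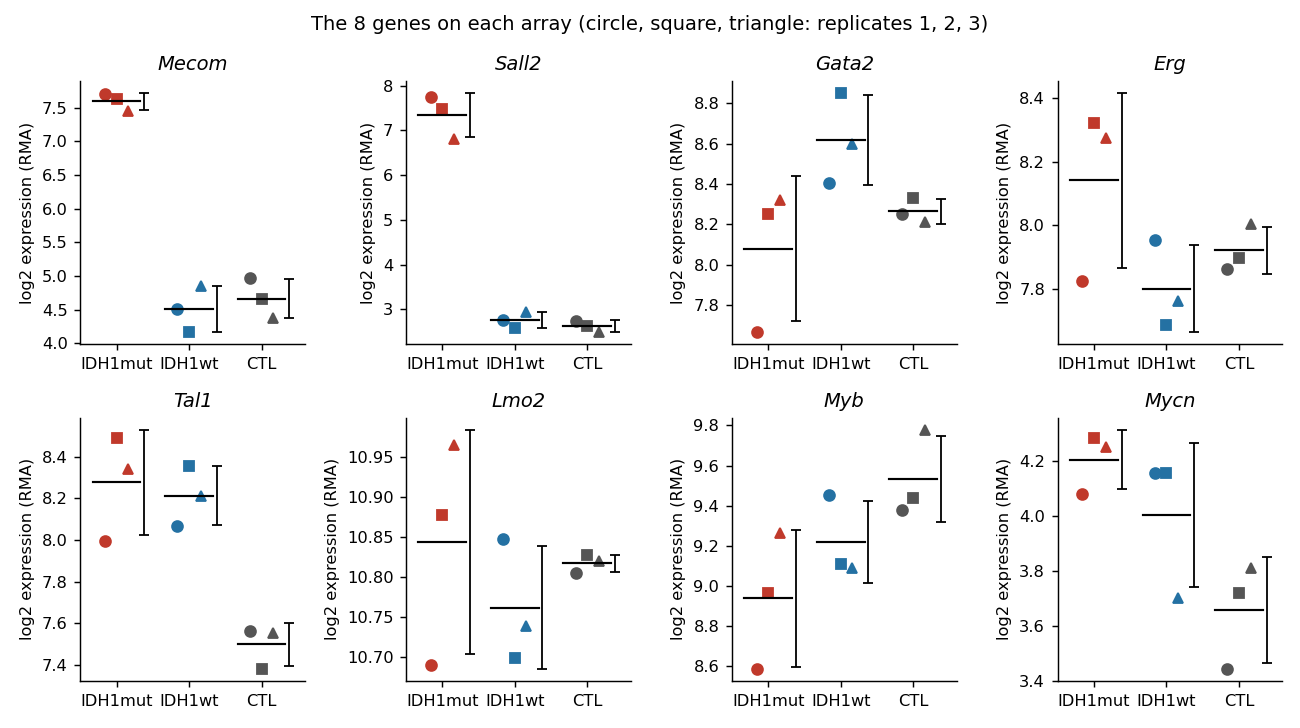
Log2 expression (RMA, vertical axis, a separate range in each panel) of the 8 genes on the IDH1mut, IDH1wt and CTL arrays. Symbols are single arrays, the horizontal line is the group mean and the bar beside it ± 1 SD (n = 3). IDH1mut arrays stand apart for Mecom (7.46 to 7.70) and Sall2 (6.81 to 7.76), CTL arrays stand below both IDH1 groups for Tal1 (7.38 to 7.56), and for Lmo2 all 9 arrays lie between 10.7 and 11.0.

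The genes beside Mecom and Sall2 on the chromosome did not share their high level. The nearest measured genes were found by order in the RefSeq gene table, 2 on each side. Beside Mecom, Actrt3, an actin-related gene, read 3.61 ± 0.05 (SD, n = 3) in IDH1mut, 3.49 ± 0.07 in IDH1wt and 3.76 ± 0.17 in CTL cells. Mynn, a zinc finger gene, read 4.96 ± 0.12 in IDH1mut, 4.92 ± 0.25 in IDH1wt and 4.88 ± 0.46 in CTL cells. Neither differed past the threshold, and neither did Egfem1 on the other side (IDH1mut minus CTL 0.09 ± 0.10; adjusted p = 0.612). Beyond Egfem1, Rpl22l1, a paralog of ribosomal protein gene Rpl22, fell in IDH1mut against CTL by 0.52 ± 0.10 on the log2 scale (adjusted p = 0.00346). It also fell against IDH1wt (-0.43 ± 0.10; adjusted p = 0.0151), a call lost without IDH1wt replicate 1 (adjusted p = 0.054).

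Next to Sall2, Mettl3, the catalytic subunit of the RNA N6-adenosine methyltransferase, read 8.27 ± 0.03 (SD, n = 3) in IDH1mut, 7.95 ± 0.01 in IDH1wt and 8.08 ± 0.10 in CTL cells. It rose in IDH1mut against IDH1wt by 0.32 ± 0.09 (adjusted p = 0.0323), a call that held in 2 of 9 fits with 1 array left out (up to 0.0922, without IDH1mut replicate 2). Against CTL its difference was 0.20 ± 0.09 (adjusted p = 0.143). Tox4, behind Mettl3, gave -0.15 ± 0.10 for IDH1mut minus CTL (adjusted p = 0.326). On the other side the nearest measured genes were the olfactory receptor genes Olfr1509 (-0.22 ± 0.14; adjusted p = 0.304) and Olfr1508 (-0.13 ± 0.09; adjusted p = 0.381), members of a large family whose probe sets can share signal. Gene models without a probe set lay in between, 3 and 5 of them on the sides of Mecom and 8 between Sall2 and Olfr1509.

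The genes most alike in pattern were sought for members whose group means span at least 1 log2 unit, which held for Mecom and Sall2 only. Likeness was the root mean square difference between 2 genes over the 9 arrays after centring each on its mean. For Mecom the nearest were Chil1, a chitinase-like protein of neutrophils and macrophages (0.389), Dnah6, an axonemal dynein heavy chain (0.487), and Fmnl2, a formin acting on actin (0.51). Chil1 read 10.17, 10.41 and 10.13 on the IDH1mut arrays, 7.92, 7.87 and 7.93 on the IDH1wt arrays and 7.56, 7.76 and 7.64 on the CTL arrays. For Sall2 the nearest gene was Mecom (0.815), followed by Chil1 (1.069) and Prrt4 (1.16), whereas Sall2 was the 30th nearest to Mecom because of its larger step. All of these share the step between IDH1mut and the other groups, and the distances are a description over 9 arrays.

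**Figure D2:**
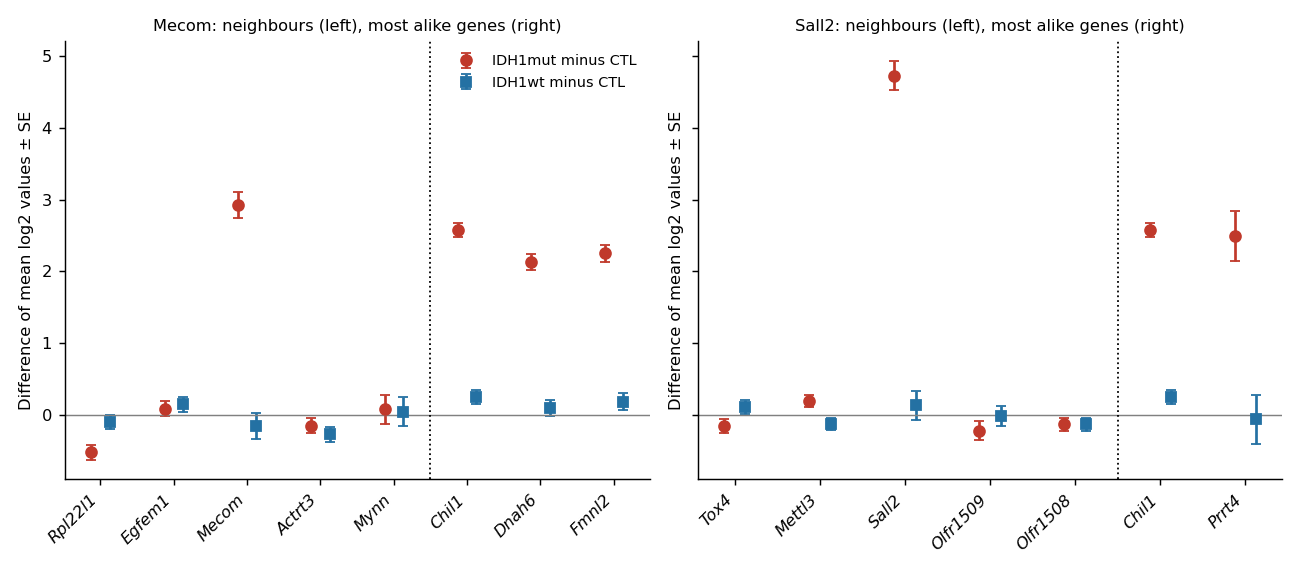
Difference of mean log2 values ± SE (vertical axis) for IDH1mut minus CTL (circles) and IDH1wt minus CTL (squares), 3 arrays a group, for Mecom (left panel) and Sall2 (right panel). Left of the dotted line each gene stands between its nearest measured chromosomal neighbours, and right of it stand its most alike genes. The 8 neighbours lie between -0.52 and 0.20 in IDH1mut minus CTL, against 2.93 for Mecom and 4.73 for Sall2.

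Among the other 6 members, Tal1 and Mycn rose and Myb fell in IDH1mut against CTL, where 20.7% of all genes were called, 10.1% as higher and 10.6% as lower. In IDH1wt against CTL, Tal1 alone of all 8 members rose and none fell, where 2.33% of all genes were called, 1.62% as higher and 0.711% as lower. In IDH1mut against IDH1wt limma called 0 of the 6, where 13.3% of all genes were called, 6.54% as higher and 6.78% as lower. Of the 6, 2 had an unadjusted p under 0.05 there, Gata2 lower and Erg higher. All of the 13.3% called pass that limit too, and the share of all genes passing it was not counted. The median difference of the 6 was 0.12 for IDH1mut minus CTL, with -0.04 over all genes, 0.07 for IDH1mut minus IDH1wt, with 0.00 over all genes, and 0.15 for IDH1wt minus CTL, with -0.04 over all genes. The comparisons with CTL share the same 3 CTL arrays.

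Tal1 was higher with either IDH1 vector than with the empty one. It read 8.0, 8.49 and 8.34 on the IDH1mut arrays, 8.07, 8.36 and 8.21 on the IDH1wt arrays, and 7.56, 7.38 and 7.55 on the CTL arrays. No array of either IDH1 group overlapped a CTL array, as was so for 37.8% of all genes in IDH1mut against CTL (16.3% higher and 21.5% lower) and 23.6% in IDH1wt against CTL (10.7% higher and 12.9% lower). The rise was 0.78 ± 0.13 in IDH1mut (1.72-fold; adjusted p = 0.00189), and it passed with any 1 array left out (highest adjusted p = 0.0103). In IDH1wt it was 0.72 ± 0.13 (1.64-fold; adjusted p = 0.0179), and this call was lost on leaving out CTL replicate 1, 2 or 3 or IDH1wt replicate 2 or 3 in turn (highest adjusted p = 0.0688, without IDH1wt replicate 3). Between IDH1mut and IDH1wt the Tal1 difference was 0.06 ± 0.13 (adjusted p = 0.811; 95% interval -0.23 to 0.35).

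TAL1 also drives red cell genes, and erythroid markers moved beside it in part. Of 12 listed erythroid markers 10 had a probe set, Tal1 being one of them, and in IDH1mut against CTL 9 of the 10 rose, with 10.1% of all genes called higher. In IDH1wt against CTL Tal1 was the 1 of 10 that rose, with 1.62% of all genes called higher. In IDH1mut against IDH1wt none of the 10 was called, with 13.3% of all genes called. Their median difference there was 0.72, and 0.00 over all genes, while Tal1 gave 0.06. Without Tal1, the mean log2 value of the list was 7.60 to 7.91 on IDH1mut arrays, 6.16 to 7.68 on IDH1wt arrays and 6.41 to 6.49 on CTL arrays. The defining marker Klf1, an erythroid transcription factor, read 9.12, 9.24 and 8.91 on IDH1mut arrays, 7.19, 9.09 and 8.47 on IDH1wt arrays and 7.89, 7.59 and 7.90 on CTL arrays, and the globin gene Hba-a1 stayed between 3.07 and 3.51 on all 9. On IDH1wt replicate 1 the erythroid mean, 6.16, was below every CTL array, while Tal1, 8.07, was above every CTL array. On the remaining arrays of the IDH1 groups both were above CTL, and the part of red cell precursors in those Tal1 values was not tested.

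**Figure D3:**
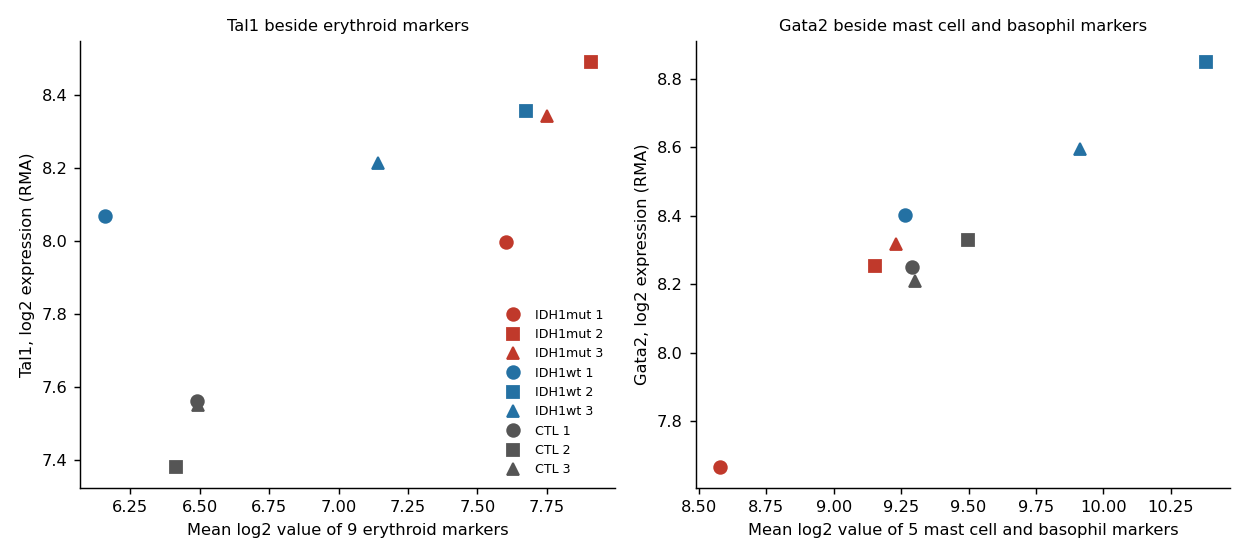
Left, log2 expression of Tal1 (vertical axis) beside the mean log2 value of 9 erythroid markers (horizontal axis) on each of the 9 arrays. Right, log2 expression of Gata2 beside the mean log2 value of 5 mast cell and basophil markers. Colours are groups and symbols replicates. IDH1wt replicate 1 has high Tal1 (8.07) at a low erythroid mean (6.16), and the lowest Gata2 value (7.66) and the lowest mast cell and basophil mean (8.58) are both on IDH1mut replicate 1.

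Gata2, which maintains stem cells and, in a later role, the mast cell and basophil lineages, was lowest in the IDH1mut group. Its values were 7.66, 8.25 and 8.32 on the IDH1mut arrays, 8.40, 8.85 and 8.60 on the IDH1wt arrays, and 8.25, 8.33 and 8.21 on the CTL arrays. All IDH1mut values were below all IDH1wt values, as was so for 15.5% of all genes, with 14.1% the other way and 29.5% in all, while IDH1mut and CTL overlapped. IDH1mut minus IDH1wt was -0.54 ± 0.17 (adjusted p = 0.0564), just short of the threshold; under 5 of 8 other settings it passed (adjusted p from 0.0326), and without IDH1wt replicate 2 the adjusted p was 0.163. IDH1mut minus CTL was -0.18 ± 0.17 (adjusted p = 0.501; 95% interval -0.55 to 0.18) and was 0.02 without IDH1mut replicate 1. IDH1wt minus CTL was 0.35 ± 0.17 (adjusted p = 0.315; 95% interval -0.01 to 0.72).

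Mast cell and basophil markers ran beside Gata2 in part. With Gata2 left out, 5 of the 8 listed had a probe set, and their mean log2 value was 8.58, 9.15 and 9.23 on IDH1mut arrays, 9.27, 10.38 and 9.91 on IDH1wt arrays and 9.29, 9.50 and 9.30 on CTL arrays. Gata2 and this mean had the same order of arrays within IDH1mut and within IDH1wt. Within CTL the order differed, with Gata2 lowest on replicate 3 (8.21) and the marker mean lowest on replicate 1 (9.29). On IDH1wt replicate 1 the marker mean, 9.27, was below every CTL array, while Gata2, 8.40, was above every CTL array. Ms4a2, the beta chain of the high-affinity IgE receptor, fell in IDH1mut against CTL (-1.37 ± 0.30; adjusted p = 0.00801), and Hdc, histidine decarboxylase, rose (0.44 ± 0.09; adjusted p = 0.00608). Against IDH1wt, Mcpt8, a basophil protease, fell in IDH1mut (-1.49 ± 0.36; adjusted p = 0.0198), a call lost without IDH1mut replicate 1 or 2 or IDH1wt replicate 2 or 3 (up to 0.0742). The part of these cells in the Gata2 values was not tested.

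Erg and Lmo2 showed no called difference. Erg, an ETS factor required by adult stem cells, read 7.83, 8.32 and 8.28 on the IDH1mut arrays, 7.95, 7.69 and 7.76 on the IDH1wt arrays, and 7.86, 7.90 and 8.01 on the CTL arrays. IDH1mut replicates 2 and 3 lay above the other 7 arrays and replicate 1 among them. IDH1mut minus CTL was 0.22 ± 0.13 (adjusted p = 0.298), IDH1mut minus IDH1wt 0.34 ± 0.13 (adjusted p = 0.127) and IDH1wt minus CTL -0.12 ± 0.13 (adjusted p = 0.701). Without IDH1mut replicate 1 Erg passed against CTL (0.38; adjusted p = 0.0386) and against IDH1wt (0.50; adjusted p = 0.0174). Erg is also an endothelial gene, and 10 of 13 endothelial markers lay below the median of all gene means; their mean was 4.14 to 4.19 on IDH1mut arrays, 4.22 to 4.35 on IDH1wt arrays and 4.21 to 4.33 on CTL arrays, and Cdh5, VE-cadherin, averaged 3.30 in IDH1mut, 3.41 in IDH1wt and 3.75 in CTL cells.

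Lmo2 was the steadiest member. It read 10.69, 10.88 and 10.96 on the IDH1mut arrays, 10.85, 10.70 and 10.74 on the IDH1wt arrays, and 10.81, 10.83 and 10.82 on the CTL arrays. The groups overlapped throughout. The 95% interval of the difference ran from -0.19 to 0.24 for IDH1mut minus CTL, from -0.13 to 0.29 for IDH1mut minus IDH1wt and from -0.27 to 0.16 for IDH1wt minus CTL (adjusted p = 0.89, 0.656 and 0.821), so that changes beyond 0.30 log2 units lie outside all 3 intervals.

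Myb, which sustains progenitor proliferation, was lower in IDH1mut cells. It read 8.58, 8.96 and 9.27 on the IDH1mut arrays, 9.45, 9.11 and 9.09 on the IDH1wt arrays, and 9.38, 9.44 and 9.78 on the CTL arrays. All IDH1mut values were below all CTL values, as was so for 21.5% of all genes, with 16.3% the other way and 37.8% in all. The IDH1wt arrays reached into both ranges. Myb fell in IDH1mut against CTL by 0.59 ± 0.17 (1.51-fold; adjusted p = 0.0324). The call was lost on leaving out IDH1mut replicate 1 or 2 or CTL replicate 2 or 3 (highest adjusted p = 0.124, without CTL replicate 3). IDH1wt minus CTL was -0.31 ± 0.17 (adjusted p = 0.393) and IDH1mut minus IDH1wt -0.28 ± 0.17 (adjusted p = 0.349), so the IDH1wt mean lay between the others without passing against either.

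Mycn ran the other way at a low level. It read 4.08, 4.28 and 4.25 on the IDH1mut arrays, 4.16, 4.16 and 3.70 on the IDH1wt arrays, and 3.44, 3.72 and 3.81 on the CTL arrays, all below the array medians. All IDH1mut values were above all CTL values, as was so for 16.3% of all genes, with 21.5% the other way and 37.8% in all. IDH1wt replicate 3 lay among the CTL arrays. Mycn rose in IDH1mut against CTL by 0.55 ± 0.14 (1.46-fold; adjusted p = 0.0184), a call lost without IDH1mut replicate 2 or 3 or CTL replicate 1 (highest adjusted p = 0.0826, without CTL replicate 1). IDH1wt minus CTL was 0.35 ± 0.14 (adjusted p = 0.249) and IDH1mut minus IDH1wt 0.20 ± 0.14 (adjusted p = 0.416).

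**Figure D4:**
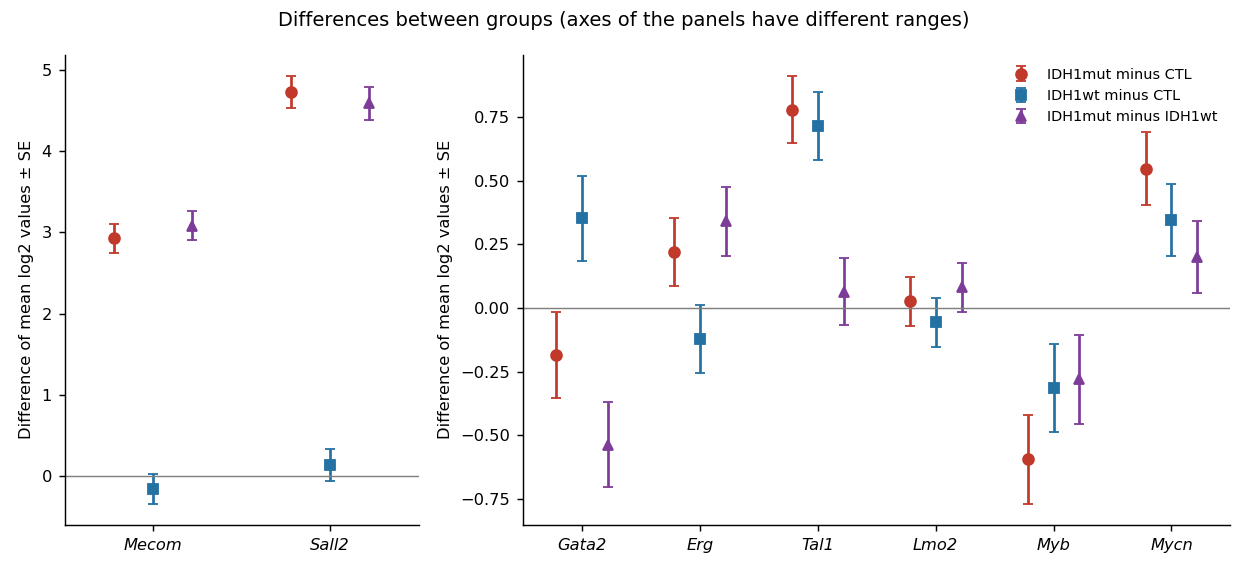
Difference of mean log2 values ± SE (vertical axis, with a wider range in the left panel) for each of the 8 genes in the 3 comparisons, 3 arrays a group. Mecom and Sall2 differ between IDH1mut and both other groups (2.93 to 4.73) and stay near 0 in IDH1wt minus CTL, while Tal1 is raised by a like amount in IDH1mut (0.78) and IDH1wt (0.72) against CTL.

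Among the IDH1mut arrays, replicate 1 had the lowest value of the 3 for Gata2, Erg, Tal1, Lmo2, Myb and Mycn, and the highest for Mecom and Sall2. The highest array was replicate 2 for Erg, Tal1 and Mycn and replicate 3 for Gata2, Lmo2 and Myb. On the same array the mean of the 11 measured stem cell surface markers was 5.68, with 5.94 and 5.98 on replicates 2 and 3, while the IDH1wt arrays lay between 5.79 and 6.00 and the CTL arrays between 5.86 and 5.91.

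Genes that act with the members held calls in both directions in IDH1mut. Of 39 listed partners and further blood stem cell factors 37 had a probe set. In IDH1mut against CTL 5 rose and 8 fell, with 20.7% of all genes called (median -0.07, and -0.04 over all genes). In IDH1wt against CTL 0 rose and 1 fell, with 2.33% of all genes called (median 0.02, and -0.04 over all genes). In IDH1mut against IDH1wt 2 rose and 5 fell, with 13.3% of all genes called (median -0.01, and 0.00 over all genes). Meis1, a homeobox partner of HOXA9, rose in IDH1mut against CTL (1.10 ± 0.16; adjusted p = 0.000749) and against IDH1wt (1.08 ± 0.16; adjusted p = 0.00161). Its values lay below the array medians on all IDH1wt and CTL arrays and on IDH1mut replicates 1 and 2. Gata1, the red cell and platelet GATA factor, rose against CTL (1.19 ± 0.30; adjusted p = 0.0158), a call lost without IDH1mut replicate 2 or CTL replicate 2 or 3 (up to 0.0539). Gfi1b, a repressor of red cell and platelet precursors, rose in the same comparison (1.12 ± 0.21; adjusted p = 0.00337). Cbfa2t3, encoding the corepressor ETO2 that joins the TAL1 complex, fell there (-0.85 ± 0.11; adjusted p = 0.000455) and against IDH1wt (-0.82 ± 0.11; adjusted p = 0.00112). Zbtb16, a zinc finger factor that EVI1 is also reported to act with, fell in IDH1mut against IDH1wt (-0.89 ± 0.15; adjusted p = 0.00386), as did Runx3 (-0.65 ± 0.10; adjusted p = 0.00183). Runx3 also fell in IDH1mut against CTL (-0.57 ± 0.10, adjusted p = 0.00205). Ets1, an ETS factor, fell in IDH1wt against CTL (-0.77 ± 0.12; adjusted p = 0.00717). It also fell in IDH1mut against CTL (-0.43 ± 0.12, adjusted p = 0.0228).

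Beside Cbfa2t3 and Gata1, 4 further partners of Tal1, Lmo2 and Erg are given here, chosen after their values were seen. Lyl1, the paralog of Tal1, fell in IDH1mut against CTL (-0.38 ± 0.08; adjusted p = 0.00721), opposite in direction to Tal1, and gave -0.14 ± 0.08 in IDH1wt minus CTL (adjusted p = 0.417). The bridging factor Ldb1 gave 0.11 ± 0.10 (adjusted p = 0.471) in IDH1mut minus CTL. Runx1 gave 0.17 ± 0.16 (adjusted p = 0.543) and Fli1 -0.07 ± 0.12 (adjusted p = 0.747) in the same comparison.

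Of 20 listed partners and reported targets of EVI1, 15 had a probe set, and in IDH1mut, where Mecom was high, 0 rose and 5 fell against CTL by limma, with 10.1% of all genes called higher and 10.6% lower (median -0.04, and -0.04 over all genes). Against IDH1wt 0 rose and 4 fell, with 6.54% of all genes called higher and 6.78% lower (median -0.19, and 0.00 over all genes), and in IDH1wt against CTL none was called, with 2.33% of all genes called. The list mixes partners with targets, so its counts have no expected direction. Beside the 5 that fell against CTL, Adgrg1 (0.25 ± 0.13, adjusted p = 0.209) and Spi1 (0.26 ± 0.09, adjusted p = 0.0686) were higher without passing. These 2 were chosen after their values were seen. Itga6, an integrin reported to be raised by EVI1 in leukemia cells, fell in IDH1mut against CTL (-0.69 ± 0.12; adjusted p = 0.00178) and against IDH1wt (-0.74 ± 0.12; adjusted p = 0.00224). Calr, calreticulin, fell in both as well (-0.52 ± 0.09, adjusted p = 0.00239, and -0.51 ± 0.09, adjusted p = 0.0051). Dnmt3a, a DNA methyltransferase, fell against CTL (-0.41 ± 0.12; adjusted p = 0.0357), a call that held in 4 of 9 fits with 1 array left out (up to 0.123). The corepressor genes Ctbp1 (-0.04 ± 0.09; adjusted p = 0.82) and Ctbp2 (-0.23 ± 0.09; adjusted p = 0.113), whose products bind EVI1 and which were chosen after their values were seen, did not pass in IDH1mut against CTL.

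Of the SALL and PRDM families, to which Sall2 and Mecom belong, 12 of 13 further listed genes had a probe set. In IDH1mut against CTL 0 rose and 3 fell, a share near the 20.7% of all genes called (median -0.04, and -0.04 over all genes). In IDH1mut against IDH1wt limma called none, with 13.3% of all genes called. None was called in IDH1wt against CTL either, with 2.33% of all genes called. Sall4, a stem cell factor, averaged 3.12 in IDH1mut, 3.46 in IDH1wt and 3.84 in CTL cells and fell in IDH1mut against CTL (-0.73 ± 0.17; adjusted p = 0.00981). Prdm16, the closest relative of Mecom, averaged 3.42 in IDH1mut, 3.92 in IDH1wt and 4.19 in CTL cells and fell there too (-0.77 ± 0.19; adjusted p = 0.0143), a call lost without IDH1mut replicate 1 or 2 or CTL replicate 1 (up to 0.0635). Prdm2 fell as well (-0.35 ± 0.10; adjusted p = 0.028), a call that held in 4 of 9 fits with 1 array left out (up to 0.0972). The Sall4, Prdm16 and Prdm2 values lie below the array medians.

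Around Myb and Mycn, 17 of 18 listed genes of the MYB and MYC network had a probe set. In IDH1mut against CTL 4 rose and 2 fell, with 20.7% of all genes called (median -0.05, and -0.04 over all genes). In IDH1mut against IDH1wt 3 rose and 1 fell, with 13.3% of all genes called (median 0.09, and 0.00 over all genes). In IDH1wt against CTL limma called none, with 2.33% of all genes called. Max, the dimer partner of all MYC proteins, rose in IDH1mut against CTL (0.65 ± 0.08; adjusted p = 0.000376) and against IDH1wt (0.57 ± 0.08; adjusted p = 0.00157). Mxd1, a MAX partner that opposes MYC, rose against CTL (0.65 ± 0.13; adjusted p = 0.00482). Mxd4, another such partner, fell against CTL (-0.48 ± 0.12; adjusted p = 0.0123), a call lost without CTL replicate 1 or 3 (up to 0.0567). Myc, the relative of Mycn, fell against CTL (-0.47 ± 0.10; adjusted p = 0.00613), opposite in direction to Mycn.

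Of 14 listed stem cell surface markers 11 had a probe set, and in IDH1mut against CTL 2 rose and 3 fell, with 10.1% of all genes called higher and 10.6% lower (median -0.04, and -0.04 over all genes). Slamf1, the surface protein CD150, rose (0.98 ± 0.18; adjusted p = 0.00302), as did Flt3, a receptor gene (0.72 ± 0.18; adjusted p = 0.0149). Kit, the stem cell factor receptor and a target of the TAL1 complex, fell (-0.56 ± 0.12; adjusted p = 0.00573), as did Cd48 (-0.61 ± 0.12; adjusted p = 0.00335). Itga2b, the integrin CD41, fell too (-0.72 ± 0.18, adjusted p = 0.0167), and Cd34 did not pass against CTL (0.04 ± 0.12, adjusted p = 0.869). In IDH1mut against IDH1wt 2 rose and 2 fell, with 13.3% of all genes called. Itga2b fell there as well (-1.13 ± 0.18, adjusted p = 0.00264). In IDH1wt against CTL limma called none of these 11, with 2.33% of all genes called.

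The last lists hold markers of other cells the sort could contain and of the myeloid cells themselves. In IDH1mut against CTL, where 10.1% of all genes rose and 10.6% fell, 1 of 13 endothelial markers fell and none rose, 1 of 7 measured megakaryocyte markers fell and none rose, 1 of 9 measured B and T cell markers rose and none fell, and 2 of 8 stromal markers rose and none fell. Of the 11 measured myeloid markers 4 rose and 5 fell there. Those that fell were Elane (-1.14), Ms4a3 (-0.999), Ctsg (-0.947), Prtn3 (-0.821) and Mpo (-0.616). Those that rose were Csf3r (0.783), Itgam (0.475), Fcgr3 (0.466) and Lyz2 (0.302). Csf1r (-0.186; adjusted p = 0.394) and Ptprc (0.464; adjusted p = 0.143) did not pass. Whether a shift in the stage of the myeloid cells lies behind this split was not tested. Median differences were -0.09 for endothelial, 0.44 for megakaryocyte, 0.05 for B and T cell, -0.01 for stromal and -0.19 for myeloid markers. Over all genes the median was -0.04. In IDH1wt against CTL limma called none in these 5 lists, with 2.33% of all genes called. In IDH1mut against IDH1wt, where 6.54% of all genes rose and 6.78% fell, 3 endothelial markers fell and none rose. Of the megakaryocyte markers 1 rose and 1 fell there, and of the myeloid markers 4 rose and 6 fell. The myeloid genes and their directions were the same as against CTL, with Csf1r falling as well (-0.470; adjusted p = 0.0434). Of the B and T cell markers 1 rose, of the stromal markers 2 rose, and none of either fell. The megakaryocyte marker that fell in both comparisons of IDH1mut was Itga2b. The part of such cells in the members' values was not tested.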

How the data were processed

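Sorted bone marrow cells of 3 groups were measured on 9 Affymetrix arrays. The deposited log2 values were made by the authors with RMA, per the submitters' processing notes, which give no version; a genome build was not stated and coordinates come from RefSeq alone. Of 20877 probe sets, the platform annotation gives 17815 a single symbol, 244 several and 2818 none. The probe set with the highest mean stood for each of 17731 genes, of which 17649 had 1.

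The members and gene lists were chosen with earlier results of these data known. limma 3.58.1 (R 4.3.3) was fitted over all genes and groups (lmFit, eBayes), with Benjamini-Hochberg adjustment and a threshold of 0.05. On simulated data for IDH1mut against CTL with 17731 genes, 50 were changed at each size. There limma recovered 38% of genes changed by 0.5, 94% by 1 and 100% by 2 or 3 log2 units, with 8 false calls among 174. The share of changed genes was far below the 20.7% called on the real arrays, so recovery there can differ. All members were named, then the nearest chromosomal neighbours, the most alike genes and, from each of the related-factor lists, up to 4 called genes per comparison with the largest changes, not all of which are printed. Markers of cell types were named after their values were seen. The labels do not say whether replicate numbers pair the arrays, and the main fit used no pairing. Deviations of arrays with the same number correlated at -0.0857 to 0.0257 over all genes, which cannot exclude a pairing. The number of arrays limits the precision. Alternatives were array weights, trended variance, rescaling, filters, a replicate block and leaving out each array.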

Additional observations from a re-analysis of the deposited data

How the results depend on the processing

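Of 336 tested differences of the members under the alternatives (those of Mecom and Sall2 in IDH1mut had no test and are not counted), 310 kept their direction and side of the threshold, 8 passed anew, 12 lost the call and 6 turned sign; where not stated, the cause was not tested. The turns were between small values. With 1 array left out, IDH1mut minus CTL ran from -0.305 to 0.0225 for Gata2 (highest without IDH1mut replicate 1) and from -0.0338 to 0.103 for Lmo2 (lowest without IDH1mut replicate 3), and IDH1wt minus CTL ran from -0.328 to 0.0165 for Mecom (highest without IDH1wt replicate 2). IDH1mut minus IDH1wt ran from -0.0428 to 0.204 for Tal1 (lowest without IDH1mut replicate 2, and -0.0075 without IDH1wt replicate 1). With quantile normalization repeated Lmo2 gave 0.0052 in IDH1wt minus CTL. Genes called numbered 2370 to 3805 in IDH1mut against CTL with 1 array left out (lowest without CTL replicate 1) and 1475 to 2193 in IDH1mut against IDH1wt (lowest without IDH1wt replicate 3). In IDH1wt against CTL they numbered 132 to 570 (132 without CTL replicate 1, 145 without CTL replicate 3 or IDH1wt replicate 3, 211 without IDH1wt replicate 2), 1226 with array weights and 717 with trended, robust variances, against 414. Of the 6 members outside the chosen pair, 1 to 3 were called in IDH1mut against CTL with 1 array left out (1 without IDH1mut replicate 2), and 0 to 1 in IDH1mut against IDH1wt. Of the 8, 0 to 1 were called in IDH1wt against CTL. Gata2 was the 1 member called in IDH1mut against IDH1wt with array weights, trended variances, median centring or genes above the median mean. The main fit did not pair the arrays by number. With the replicate block 3383, 2035 and 314 genes were called in IDH1mut against CTL, IDH1mut against IDH1wt and IDH1wt against CTL. Among the members the block changed 1 call, adding Gata2 (1 member) in IDH1mut against IDH1wt. Mycn and Sall2 gave no value among genes above the median mean, since they lie below it. RMA values carry no call of detection, so signal over background is unknown for the low values of Sall2 and Mycn.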
